A study of Saccharomyces cerevisiae with 6 samples.

Results

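The proteins of the yeast mitochondrial ribosome form a group of 72 nuclear genes, 42 of the large subunit and 30 of the small subunit, among 5988 nuclear protein-coding genes in a count table of 9891 rows. Members were chosen by name: every nuclear protein-coding gene whose SGD name is MRPL, MRPS, RSM or MRP followed by a number, without MRP8, plus IMG1, IMG2, YML6, MNP1, NAM9 and PET123. The annotation gives 71 of the 72 a ribosomal protein family name. RSM22, which is annotated as a tRNA methyltransferase, has none.

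RNA was compared between quiescent cells and log-phase cells of Saccharomyces cerevisiae, with 3 libraries of each, described by the submitters as biological replicates. Quiescent cells were the dense fraction taken by a pair of Percoll gradients from 7-day-old cultures, and log cells were collected at an OD600 of 0.8 to 1.0. Both states were grown at 30 °C in YPD medium with added adenine and ampicillin. Every library came from strain YCH406, so quiescent and log cells share all of its alleles. It is MATa and lacks both chromosomal histone H2A-H2B gene pairs, (hta1-htb1)∆::LEU2 and (hta2-htb2)∆::TRP1. Its H2A and H2B come from the plasmids pSAB6 (HTA1-HTB1-URA3) and pZS145 (HTA1-Flag-HTB1::HIS3). It also carries the marker alleles his3∆200, leu2∆1, ura3-52 and trp1∆, and the tagged polymerase subunit RPB3-9Myc::hphNT1. The comparison therefore describes this histone-plasmid strain, and no other strain was measured.

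Mitochondria keep their own ribosome, which in yeast makes almost only membrane subunits of the respiratory chain and of the ATP synthase. Its rRNAs and the protein Var1 are encoded in mitochondrial DNA, while its other proteins are encoded in the nucleus, translated in the cytosol and imported. The mRNAs of these imported proteins are the best known targets of Puf3, an RNA-binding protein that recognises a short motif in the 3′ part of the message and controls the decay, translation and location of its targets as the carbon source changes. Yeast in log phase on glucose ferments, and cells that enter quiescence depend on respiration.

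The libraries held 8894585, 12696572 and 12245637 counts in quiescent replicates 1, 2 and 3, and 12395743, 10476761 and 14213993 counts in log replicates 1, 2 and 3. Single members had 20 to 705 counts in a library. A member of median count had a counting error of 8.32% in quiescent libraries and 7.48% in log libraries. Marker genes of the state followed the labels with no overlap between the groups: the quiescence genes SPG1, SPG4 and SNZ1 and the heat shock genes HSP12 and HSP26 were higher in quiescent cells, and PMA1, RNR1 and CLN2, used in growth and division, were lower. Levels below are in TMM-normalized CPM per kilobase of the gene length in the deposited table (CPM per kb), and fold changes are log2 of quiescent over log, each with the standard error of the fit. In bulk RNA, fewer cells of a kind and less RNA per cell cannot be told apart.

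The feature that the members most share, and that the name rule did not use, lies just after their stop codons. The Puf3 motif TGTANATA was searched on the coding strand in the 250 bases after each stop codon of the R64 genome. It was present in 71 of the 72 members (98.6%), against 909 of all 5986 nuclear genes with such a window (15.2%). All 42 large-subunit genes and 29 of the 30 small-subunit genes had it, RSM22 being the exception. The sites below are from a gene that fell, one that rose and one that did not pass the test in each subunit, shown so that the letters can be compared across opposite responses. The motif is in capitals, each line gives the coding strand 5′ to 3′ with 9 flanking bases on either side, and genes with more than 1 site have a line for each.
MNP1: aatatatcaTGTAAATAtgtttaact
MRPL24, first site: gttttccccTGTATATAaaaaagcat
MRPL24, next site: atatctgttTGTACATAtgtaggtat
IMG1: cccatctccTGTATATAagaaaaata
MRPS8: tacggaccaTGTAAATAataatatta
MRPS17: actacactcTGTAAATAtatacaact
RSM24, first site: cggccccccTGTATATAttatgtatt
RSM24, next site: tctctaaaaTGTACATAgttttagca

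In R64 coordinates the MNP1 line is chrVII:375741-375766 on the plus strand, with its motif 79 bases after the stop codon. The MRPL24 lines are chrXIII:650858-650883 and chrXIII:650882-650907 on the plus strand, at 55 and 79 bases. The IMG1 line is chrIII:209865-209890 on the minus strand, at 33 bases. The MRPS8 line is chrXIII:572763-572788 on the plus strand, at 57 bases, and the MRPS17 line is chrXIII:636219-636244 on the minus strand, at 56 bases. The RSM24 lines are chrIV:813144-813169 and chrIV:813099-813124 on the minus strand, at 33 and 78 bases. MNP1 fell and MRPS17 rose in quiescent cells, and both sites read TGTAAATA, so the letters of the motif did not separate the directions in these examples.

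The 71 members held 87 sites in all, and 14 members had more than 1. The open base of the motif was A in 39 sites, T in 29, C in 18 and G in 1. The median site began 56 bases after the stop codon, and 84 of the 87 began within 150 bases. Between 26 and 50 bases after the stop, 40.3% of members had a site, against 3.33% of other nuclear genes. On the opposite strand of the same windows the motif was in 14 of 72 members (19.4%), near the 14.6% of all nuclear genes. A longer form, with a C placed 2 bases before the motif, was searched after it had been seen in the sites, and stood in 56 of 72 members (77.8%) against 4.46% of all genes. A match describes letters in the window and does not show that Puf3 was bound.

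**Figure D1:**
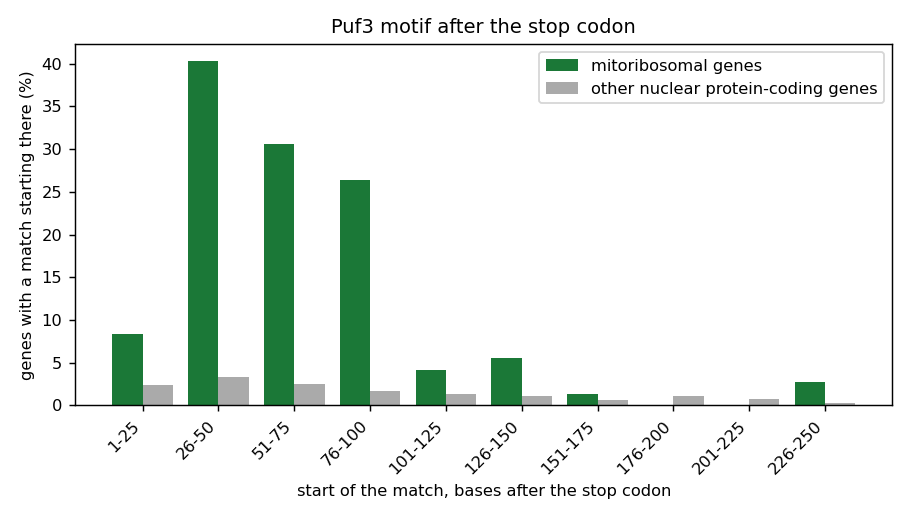
Share of genes (%, vertical axis) with a TGTANATA site starting in each 25-base bin after the stop codon (horizontal axis, bases), for mitochondrial ribosomal protein genes and for all other nuclear genes. Members peak at 26 to 50 bases with 40.3%, where other genes have 3.33%.

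The question the design asks of these genes is how their RNA stood in quiescent cells relative to dividing ones. With TMM scaling the members as a group moved little, and in both directions. Of the 72, which all passed the expression filter, 13 rose and 12 fell in quiescent cells at an adjusted p under 0.05 (edgeR quasi-likelihood test, Benjamini-Hochberg over 7305 rows), and 47 did not pass. That is 34.7% called, against 72.7% of the nuclear protein-coding genes tested, of which 31.7% rose and 41.1% fell. Among the 3188 genes within the members' own range of mean counts the share called was 67.8%. At an unadjusted p under 0.05, 30 members passed.

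The median log2 fold change over the members was -0.08 with quartiles of -0.55 and 0.43, whereas over all nuclear genes it was -0.22 with quartiles of -1.52 and 1.00. A change of less than 1 log2 unit in either direction was found in 59 members (81.9%), against 41.3% of all genes. Groups did not overlap for 32 members, 17 of them higher and 15 lower in all quiescent libraries, set against 77.8% of nuclear genes, 33.8% higher and 44.1% lower. The split between rises and falls depended on the scaling, and so did the share called. With total-count scaling 6 members rose and 16 fell (background 24.3% risen and 42.6% fallen), so that 27.3% of called members rose in place of 52.0%. On the scale of log2(TPM + 1), where the median of all genes moved to -0.98, 2 members rose and 47 fell (background 14.2% risen and 60.2% fallen). The share of members called was 68.1% on that scale, close to the 74.4% of nuclear genes. Within 1 log2 unit of the all-gene median were 87.5% of members, against 49.9% of nuclear genes. Measured from the median of all genes, the members' median stood 0.04 higher there. Without quiescent replicate 2, 12 members rose and 19 fell, 12 of the fallers in the large subunit in place of 6, beside a background of 30.9% risen and 41.6% fallen. With TMM factors from nuclear protein-coding genes 17 rose and 11 fell (background 35.9% and 37.1%), and with a filter of 10 TPM 6 of the 17 members left rose and 1 fell (background 32.7% and 49.5%). The replicate block gave 12 risen and 13 fallen (background 29.9% and 40.2%), and log2(TPM + 0.1) gave 2 and 47 (background 13.9% and 59.5%).

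**Figure D2:**
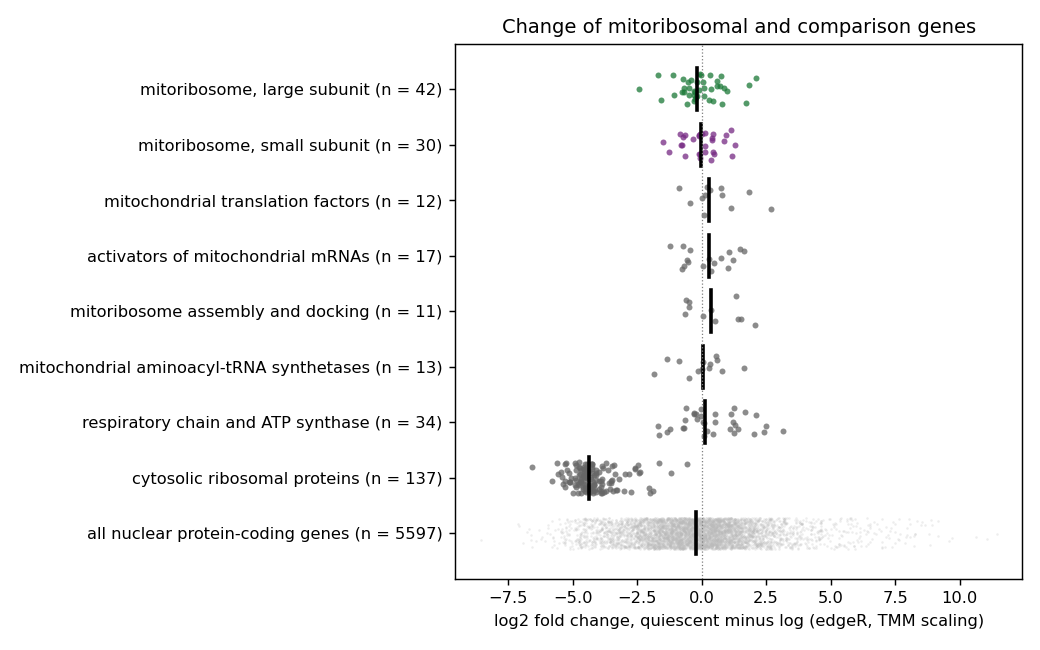
Log2 fold change of quiescent over log (horizontal axis) for each large-subunit and small-subunit gene, for related gene groups and for all nuclear genes (rows), with each point a gene and the bar the group median. Both mitochondrial subunits centre near 0, at -0.18 and -0.02, while cytosolic ribosomal protein genes centre at -4.36; with log2(TPM + 1) the mitochondrial medians are -0.998 and -0.85, near the all-gene median of -0.98.

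In the large subunit 8 genes rose, 6 fell and 28 did not pass, with a median of -0.18. That is 33.3% called, beside 72.7% of nuclear protein-coding genes (31.7% risen and 41.1% fallen). Its extremes were both bacterial-type proteins. MNP1 (YGL068W, bL12m, chrVII:375087-375671), the mitochondrial counterpart of the L7/L12 stalk protein that recruits translation factors, had the greatest fall of any member. It had 11.1, 19.6 and 11.6 CPM per kb in quiescent replicates 1, 2 and 3, against 79.1, 72.4 and 79.3 CPM per kb in log replicates 1, 2 and 3. Every quiescent library was below every log library, with means of 14.1 ± 4.77 in quiescent cells and 77.0 ± 3.92 in log cells (SD, n = 3 each). The log2 fold change was -2.44 ± 0.25 (SE), with an adjusted p of 1.09e-05 by edgeR.

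Of the proteins at the foot of the stalk, one fell and one did not pass. MRPL11 (uL10m), the anchor to which stalk proteins attach, had 10.5, 5.83 and 9.03 CPM per kb in quiescent libraries, against 13.4, 20.5 and 19.9 CPM per kb in log libraries. Its groups did not overlap and it fell by 1.08 ± 0.30 on the log2 scale (edgeR adjusted p 0.0091). MRPL19 (uL11m), at the base of the stalk, had 26.8, 17.4 and 12.6 CPM per kb in quiescent libraries and 29.7, 35.2 and 26.0 in log libraries. Its groups overlapped, and its log2 fold change of -0.67 ± 0.30 did not pass (adjusted p 0.0692, edgeR), though it passed without quiescent replicate 1 at -1.01 (adjusted p 0.0133). MRPL19 overlaps the annotated gene YNL184C, so its reads are uncertain.

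MRPL32 (bL32m), whose maturation by the m-AAA protease is tied to assembly of the ribosome, had 5.43, 3.96 and 3.90 CPM per kb in quiescent libraries, against 19.4, 14.4 and 9.78 CPM per kb in log libraries. It fell by 1.71 ± 0.37 (edgeR adjusted p 0.00207) and its groups were apart, although the log libraries spread nearly as widely as the distance between the groups. MRPL3 (mL44), a protein with an RNase III-like fold, had 6.21, 8.87 and 7.23 CPM per kb in quiescent libraries and 20.6, 25.2 and 21.5 in log libraries. Here each group was tight, and the gene fell by 1.59 ± 0.22 (adjusted p 0.000105, edgeR). MRPL20 (mL58) had 15.3, 13.7 and 17.0 CPM per kb in quiescent libraries and 31.8, 36.3 and 32.0 in log libraries, and fell by 1.12 ± 0.21 (edgeR adjusted p 0.000883). MRPL13 (mL50) was the remaining faller of this subunit, with 13.2, 21.4 and 19.1 CPM per kb in quiescent libraries, 28.2, 36.5 and 27.5 in log libraries and a log2 fold change of -0.78 ± 0.24 (edgeR adjusted p 0.0142), lost without log replicate 2 (adjusted p 0.0673) and with TMM factors from nuclear protein-coding genes (-0.57, adjusted p 0.0553).

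MRPL24 (YMR193W, bL28m, chrXIII:650036-650812) had the greatest rise of the 72. It had 70.8, 43.6 and 93.9 CPM per kb in quiescent replicates 1, 2 and 3, against 13.4, 15.6 and 18.7 CPM per kb in log replicates 1, 2 and 3. The lowest quiescent library was well above the highest log library, with means of 69.4 ± 25.2 in quiescent cells and 15.9 ± 2.63 in log cells (SD, n = 3 each). The log2 fold change was 2.12 ± 0.29 (adjusted p 8.57e-05, edgeR).

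Of 5 genes for proteins of the nascent peptide tunnel or its exit, MRP20, MRPL40 and YML6 rose and MRPL4 and MRPL22 did not pass. These 5 were grouped after their values were seen and are not a full list of that site, so their counts do not describe the site. MRP20 (uL23m) had 35.4, 36.3 and 25.2 CPM per kb in quiescent libraries, against 11.3, 7.05 and 8.38 CPM per kb in log libraries. It rose by 1.85 ± 0.26 (edgeR adjusted p 0.000108) with no overlap. MRPL40 (uL24m), its neighbour at the exit, had 29.6, 24.4 and 29.0 CPM per kb in quiescent libraries and 16.2, 15.8 and 16.2 in log libraries, a log2 fold change of 0.79 ± 0.19 (edgeR adjusted p 0.00384) that turned to -0.20 on the log2(TPM + 1) scale. YML6 (uL4m), which lines the tunnel, had 24.1, 25.9 and 18.6 CPM per kb in quiescent libraries and 14.5, 15.5 and 15.5 in log libraries. Its log2 fold change of 0.59 ± 0.20 (edgeR adjusted p 0.0255) did not overlap between groups, but was lost on leaving out any of 4 single libraries, with adjusted p of 0.0613 without quiescent replicate 1, 0.0615 without quiescent replicate 2, 0.0893 without log replicate 1 and 0.062 without log replicate 2, and turned to -0.37 with TPM. MRPL4 (uL29m), also at the exit, had 7.18, 10.7 and 7.95 CPM per kb in quiescent libraries and 12.2, 11.8 and 12.3 in log libraries. Every quiescent library of MRPL4 was below every log library, but its log2 fold change of -0.49 ± 0.25 did not pass (edgeR adjusted p 0.108). Without quiescent replicate 2, MRPL4 passed at -0.68 (adjusted p 0.0361). MRPL22 (uL22m), a further protein of the exit, had overlapping groups and a log2 fold change of -0.17 ± 0.22.

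MRPL28 (mL40), a protein found in mitochondrial ribosomes and not in bacterial ones, had the highest mean level of all members. Its levels were 92.3, 110.4 and 68.1 CPM per kb in quiescent libraries, against 25.9, 31.0 and 26.3 CPM per kb in log libraries. The groups were far apart, with means of 90.3 ± 21.2 in quiescent cells and 27.7 ± 2.84 in log cells (SD, n = 3 each) and a log2 fold change of 1.70 ± 0.22 (edgeR adjusted p 6.77e-05). MRP49 (mL61) had 23.9, 41.7 and 20.01 CPM per kb in quiescent libraries and 13.2, 14.3 and 16.4 in log libraries. Its log2 fold change of 0.96 ± 0.32 (edgeR adjusted p 0.0209) leant on 1 high quiescent library: without quiescent replicate 2 it was 0.58 (adjusted p 0.0968), without log replicate 1 or 2 the adjusted p was 0.0685 and 0.0548, and on the TPM scale the value was -0.09. MRPL16 (uL16m) and MRP7 (bL27m), whose bacterial counterparts lie near the peptidyl transferase centre, rose by 0.75 ± 0.23 and 0.73 ± 0.18 (edgeR adjusted p 0.0141 and 0.00499). Quiescent libraries had 40.2, 35.4 and 25.7 CPM per kb of MRPL16 and 33.5, 37.99 and 33.7 of MRP7, against 20.3, 22.7 and 17.2 of MRPL16 and 23.9, 21.2 and 18.2 of MRP7 in log libraries. With total-count scaling MRP49, MRPL40, YML6, MRPL16 and MRP7 no longer passed, and on the log2(TPM + 1) scale MRPL28 did not pass at 0.63 and MRPL16 and MRP7 turned to -0.24 and -0.25. Without quiescent replicate 1, MRPL16 did not pass (adjusted p 0.0539).

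Some members of the large subunit, of high and of low level, differed by less than the replicate spread. MRPL39 (bL33m) had 50.8, 63.0 and 39.0 CPM per kb in quiescent libraries and 52.8, 46.7 and 49.8 in log libraries, a log2 fold change of 0.03 ± 0.25. IMG1 (bL19m), named for the integrity of the mitochondrial genome that its loss impairs, had 30.4, 37.7 and 36.1 CPM per kb in quiescent libraries and 28.3, 37.5 and 40.5 in log libraries, a value of -0.03 ± 0.22. In both genes the quiescent and log libraries overlapped. MRPL33 (uL30m) and MRPL35 (mL38) likewise overlapped, at 0.10 ± 0.28 and 0.08 ± 0.26. On the log2(TPM + 1) scale MRPL39, MRPL33 and MRPL35 fell with that scale's lower median, at -0.94, -0.85 and -0.76. IMG2 (mL49), named for the same phenotype, had 18.4, 22.6 and 17.3 CPM per kb in quiescent libraries and 11.8, 15.3 and 16.2 in log libraries. Its groups did not overlap, yet its log2 fold change of 0.43 ± 0.27 did not pass the test (edgeR adjusted p 0.185).

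In the small subunit 5 genes rose, 6 fell and 19 did not pass, with a median of -0.02. That is 36.7% called, beside 72.7% of nuclear protein-coding genes (31.7% risen and 41.1% fallen). The greatest fall was that of MRPS8 (uS8m), whose bacterial counterpart is an early binder of the small rRNA. It had 7.05, 7.85 and 6.21 CPM per kb in quiescent libraries, against 18.9, 26.2 and 15.3 CPM per kb in log libraries, without overlap. Its log2 fold change was -1.51 ± 0.32 (edgeR adjusted p 0.00182). MRP4 (uS2m) had 10.4, 18.4 and 13.1 CPM per kb in quiescent libraries and 32.3, 31.3 and 37.96 in log libraries, and fell by 1.28 ± 0.23 (edgeR adjusted p 0.000705). Part of MRP4 overlaps the annotated gene YHL005C, so that reads there could belong to either.

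The other 4 small-subunit genes that fell did so by less than 1 log2 unit, each with all quiescent libraries below all log libraries. MRPS9 (uS9m) had 20.05, 19.95 and 23.8 CPM per kb in quiescent libraries and 36.2, 39.4 and 36.9 in log libraries. MRP1 (mS43), related in fold to superoxide dismutases, had 24.0, 25.6 and 16.7 CPM per kb in quiescent libraries and 38.6, 39.3 and 36.5 in log libraries. Their log2 fold changes were -0.82 ± 0.18 for MRPS9 and -0.79 ± 0.20 for MRP1 (edgeR adjusted p 0.00205 and 0.00609), and with a filter of 10 TPM neither passed. MRPS35 (mS45) and MRP13 (mS44), both without a bacterial counterpart, changed by -0.76 ± 0.22 and -0.74 ± 0.22 (edgeR adjusted p 0.0102 and 0.0115). Without log replicate 3, MRPS35 no longer passed, at -0.59 (adjusted p 0.0669).

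MRPS17 (uS17m), another protein bound to the small rRNA, led the small-subunit risers. It had 33.2, 38.2 and 24.7 CPM per kb in quiescent libraries, against 12.8, 14.1 and 12.1 CPM per kb in log libraries, a log2 fold change of 1.30 ± 0.23 (edgeR adjusted p 0.000575). RSM28 (mS46), tied by genetics to the start of mitochondrial translation, had 19.3, 28.3 and 21.4 CPM per kb in quiescent libraries and 8.52, 13.5 and 8.26 in log libraries, a value of 1.19 ± 0.26 (edgeR adjusted p 0.00231). In both genes the groups were well apart. On the log2(TPM + 1) scale neither passed, at 0.24 for MRPS17 and 0.16 for RSM28.

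MRPS16 (bS16m) was among the most even in quiescent cells, with 64.2, 65.3 and 64.1 CPM per kb in quiescent libraries, against 34.1, 34.2 and 19.8 CPM per kb in log libraries. It rose by 1.14 ± 0.25 (edgeR adjusted p 0.00219), but on the log2(TPM + 1) scale MRPS16 did not pass, at 0.15. RSM7 (uS7m), a core binder of the small rRNA in bacteria and second in mean level, had 88.4, 82.9 and 59.1 CPM per kb in quiescent libraries and 43.3, 43.5 and 33.0 in log libraries. RSM10 (uS10m) had 26.3, 46.6 and 38.6 CPM per kb in quiescent libraries and 19.3, 24.1 and 18.1 in log libraries. RSM7 rose by 0.94 ± 0.21 and RSM10 by 0.86 ± 0.25 (edgeR adjusted p 0.00278 and 0.0119), on the log2(TPM + 1) scale they turned to -0.07 and -0.17, and with total-count scaling neither passed (adjusted p 0.0532 and 0.109).

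Among the small-subunit genes that did not pass, NAM9 (uS4m), first found through suppressors of nonsense mutations in mitochondrial DNA, had 20.8, 31.9 and 14.7 CPM per kb in quiescent libraries and 25.6, 25.7 and 22.0 in log libraries. The quiescent libraries lay on both sides of the log libraries, and the log2 fold change was -0.12 ± 0.26. RSM19 showed a similar spread with 34.5, 78.4 and 30.1 CPM per kb in quiescent libraries and 35.9, 56.9 and 37.6 in log libraries, a value of 0.14 ± 0.37. PET123 (mS26) had 29.5, 21.7 and 23.1 CPM per kb in quiescent libraries and 19.5, 17.5 and 16.2 in log libraries. Its groups did not overlap and its log2 fold change of 0.48 ± 0.20 just missed the threshold (edgeR adjusted p 0.0562), passing without quiescent replicate 2 at 0.57 (adjusted p 0.0312). RSM23 (mS29), the counterpart of human DAP3, had overlapping groups at -0.07 ± 0.23. MRPS18 (uS11m) and MRP21 (bS21m) overlapped at 0.12 ± 0.23 and 0.14 ± 0.36. On the TPM scale RSM19, RSM24, MRP21 and MRPS18 fell, at -0.91, -0.81, -0.80 and -0.83.

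RSM22, the gene without the motif, had the lowest mean level of the 72. It had 10.3, 6.99 and 7.80 CPM per kb in quiescent libraries and 10.8, 9.49 and 6.18 in log libraries, which overlapped, with a log2 fold change of -0.08 ± 0.26. RSM24 (mS35), with its pair of sites, had 16.2, 15.8 and 19.6 CPM per kb in quiescent libraries and 15.3, 22.3 and 13.0 in log libraries, with a value of 0.03 ± 0.25. In both genes the difference was within the replicate spread. All 13 genes that rose and all 12 that fell had at least 1 TGTANATA site. Every member that did not pass had it too, except RSM22. With only 1 gene lacking the site, its presence could not have separated called members from the rest.

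**Figure D3:**
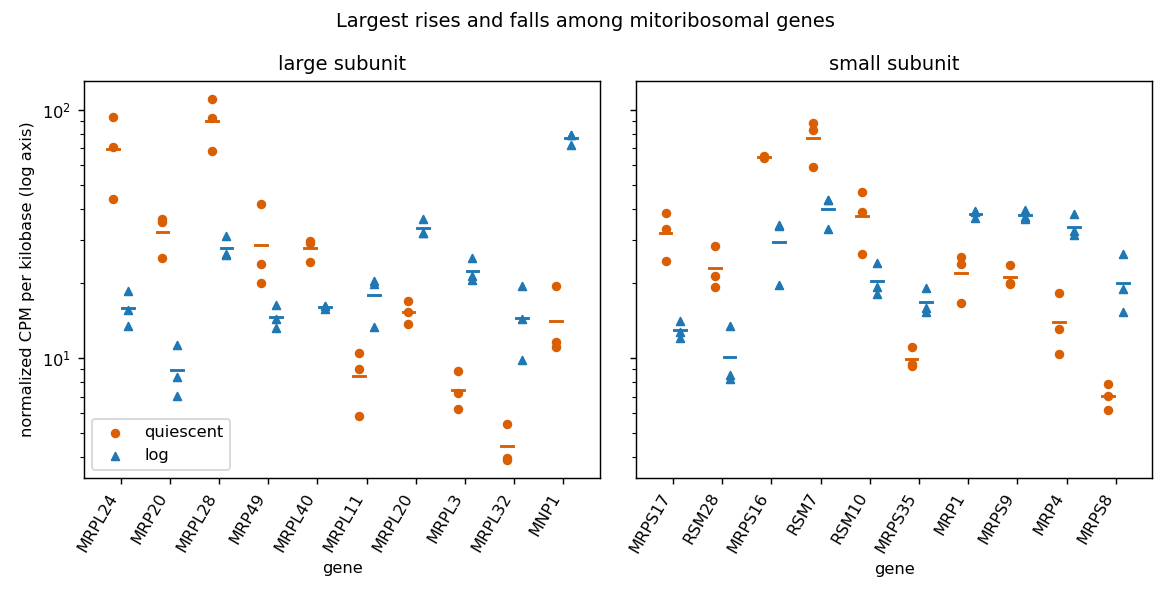
Level in each library (CPM per kb, log axis) of the 5 genes of greatest rise and of greatest fall in each subunit, with quiescent libraries (circles) left of log libraries (triangles) and bars at the group means. In each of these genes the groups are apart, with MRPL28 at 68.1 to 110.4 in quiescent libraries and 25.9 to 31.0 in log libraries; on the log2(TPM + 1) scale MRP49, MRPL40, RSM7 and RSM10 turn negative.

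The large and small subunits were hardly apart. Their median log2 fold changes, -0.18 and -0.02, differed by -0.16, a small distance beside the quartiles of either subunit (-0.53 and 0.41 for the large, -0.57 and 0.43 for the small). No test was applied to that difference. The median level of large-subunit genes was 21.1, 22.5 and 17.2 CPM per kb in quiescent libraries, against 20.4, 23.4 and 20.1 CPM per kb in log libraries. For small-subunit genes it was 20.6, 21.5 and 20.4 CPM per kb in quiescent libraries and 20.2, 24.9 and 19.2 in log libraries. The ratio of large to small medians was 1.03, 1.04 and 0.840 in quiescent libraries and 1.01, 0.938 and 1.05 in log libraries, so the states overlapped and both stayed near parity.

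By the SD of log2 level and the ratio of highest to lowest, levels among the members spread more widely in quiescent cells. The SD of log2 level over the 72 genes was 0.891, 0.884 and 0.867 in quiescent libraries, against 0.632, 0.677 and 0.673 in log libraries. The highest member exceeded the lowest 17.0-fold, 27.9-fold and 24.1-fold in quiescent libraries, and 9.29-fold, 10.3-fold and 12.8-fold in log libraries. Neither measure was computed for other genes, so whether the wider spread is particular to the members was not tested. By both measures every quiescent library exceeded every log library. The middle of the distribution did not show this: the ratio of the upper to the lower quartile of members was 2.55, 2.05 and 2.15 in quiescent libraries and 1.94, 2.15 and 1.87 in log libraries, which overlap. Among nuclear genes in the members' count range that ratio was 3.20, 3.44 and 2.92 in quiescent libraries and 2.96, 2.88 and 3.20 in log libraries. The SD was wider within each subunit, with an SD of 0.924, 0.878 and 0.892 in quiescent and 0.655, 0.695 and 0.694 in log libraries for the large subunit, and 0.853, 0.906 and 0.829 in quiescent and 0.607, 0.657 and 0.656 in log libraries for the small subunit. Across the 72 genes, log2 mean levels in quiescent and log cells were related with a Pearson r of 0.400 and a Spearman rho of 0.423. This is a description over genes that share libraries and are not independent replicates. The r was 0.549 over the 30 small-subunit genes and 0.301 over the 42 large-subunit genes.

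**Figure D4:**
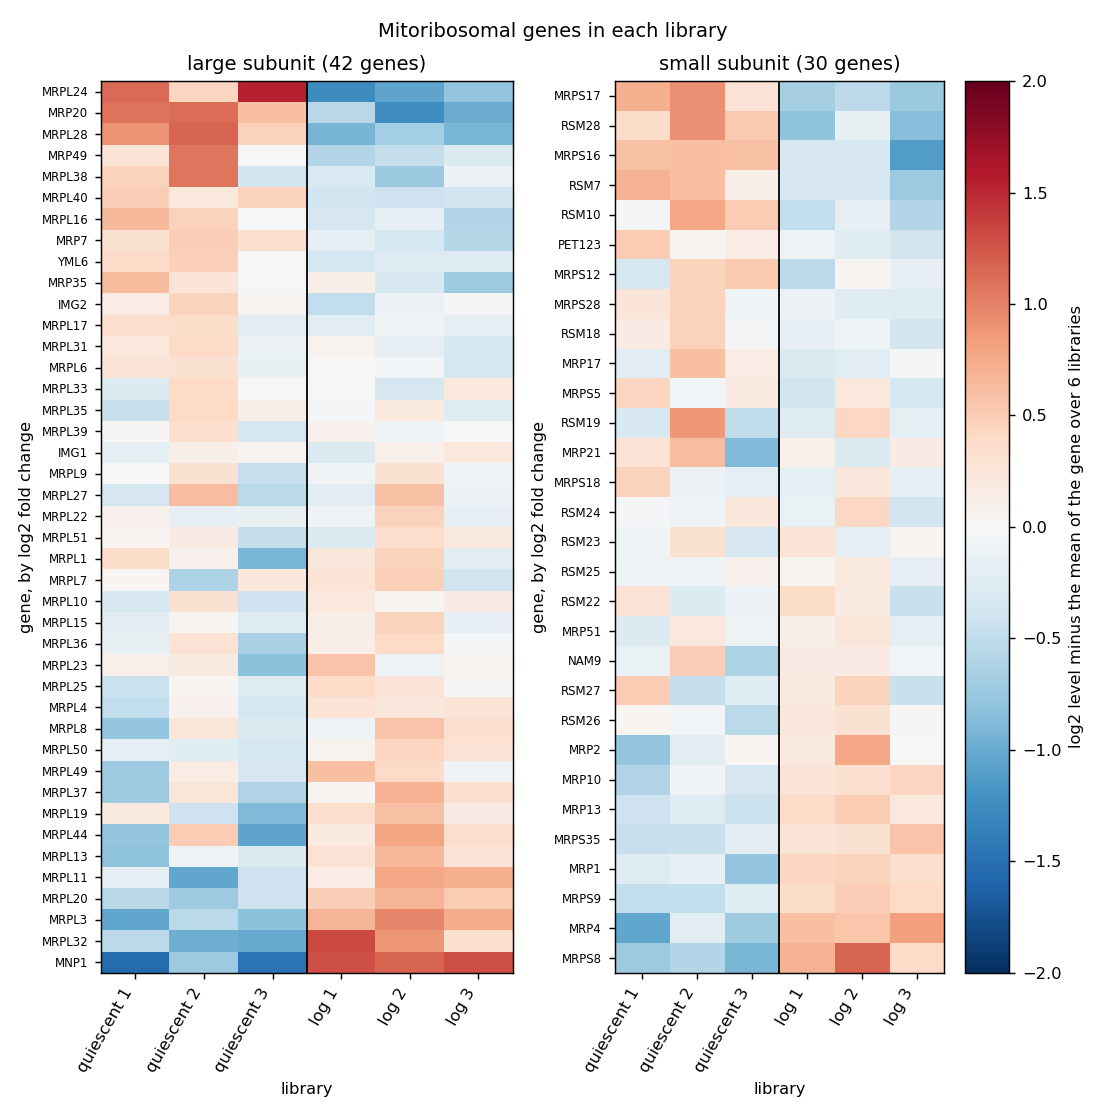
Log2 level of each member in each library minus the gene's mean over the 6 libraries (colour), with quiescent libraries left of log libraries and genes sorted by fold change within each subunit. The 13 risen genes lie towards the top and the 12 fallen ones towards the bottom of the blocks, and most rows between them are pale or mixed.

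Members of each evolutionary class both rose and fell. Of the 29 members of universal protein families 7 rose and 4 fell, with a median of 0.10. Of the 16 shared with bacteria alone 3 rose and 2 fell, with a median of 0.00, although this class holds both extremes, MNP1 and MRPL24. Of the 26 found in mitochondria alone 3 rose and 6 fell, with a median of -0.15. In all nuclear genes 31.7% rose and 41.1% fell. These counts carry no test. The 33 members that did not pass and are outside the rule for named genes had log2 fold changes between -0.72 and 0.87. In 4 of them, MRPL50 and MRP10 on the lower side and RSM18 and MRPS28 on the higher, the groups did not overlap. These 4, and MRPL19 and MRPL22 for their place in the ribosome, were named after their values were seen. MRP10 passed without quiescent replicate 2 (-0.80, adjusted p 0.0428) and MRPS28 without quiescent replicate 3 (0.61, adjusted p 0.0424).

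The rRNAs of the mitochondrial ribosome rose in quiescent cells. The large rRNA, 21S, had 500, 348 and 586 CPM per kb in quiescent libraries, against 39.4, 47.2 and 35.6 CPM per kb in log libraries. The small rRNA, 15S, had 200, 184 and 392 CPM per kb in quiescent libraries and 17.7, 22.8 and 15.6 in log libraries. No library of one state reached the other, and the log2 fold changes were 3.55 ± 0.29 for 21S and 3.79 ± 0.34 for 15S (edgeR adjusted p 2.23e-06 and 4.38e-06). The samples were depleted of rRNA before sequencing, and the part of uneven depletion in these values was not tested. VAR1, the ribosomal protein gene that mitochondrial DNA encodes, had 27.3, 5.18 and 18.3 CPM per kb in quiescent libraries and 18.8, 35.8 and 15.8 in log libraries. Its groups overlapped, with a log2 fold change of -0.47 ± 0.50 that did not pass (edgeR adjusted p 0.420), but did on the log2(TPM + 1) scale at -1.37.

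The ribosome of the cytosol gave the plainest contrast. Of its 137 measured protein genes 136 fell and none rose in the edgeR test, with a median log2 fold change of -4.36. RPS22A fell by 6.59 ± 0.25 and RPP0, the cytosolic counterpart of the stalk anchor, by 5.80 ± 0.28, while RPS22B did not pass at -0.56, except without log replicate 1 at -0.80 (adjusted p 0.0467). The median cytosolic gene had 36.1, 41.1 and 33.04 CPM per kb in quiescent libraries, against 755, 627 and 739 CPM per kb in log libraries. The median mitochondrial member had 20.6, 22.0 and 18.6 CPM per kb in quiescent libraries and 20.2, 24.1 and 19.3 in log libraries. Cytosolic genes therefore exceeded mitochondrial ones 1.75-fold, 1.87-fold and 1.78-fold in quiescent libraries and 37.3-fold, 26.0-fold and 38.3-fold in log libraries. As a share of nuclear coding counts, the 72 members took 0.334%, 0.378% and 0.299% in quiescent libraries and 0.180%, 0.215% and 0.159% in log libraries, while the cytosolic genes took 1.78%, 2.03% and 1.56% in quiescent and 16.5%, 14.9% and 15.6% in log libraries. As a share of all counts the members overlapped between states, at 0.131%, 0.116% and 0.0795% in quiescent and 0.129%, 0.141% and 0.101% in log libraries.

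**Figure D5:**
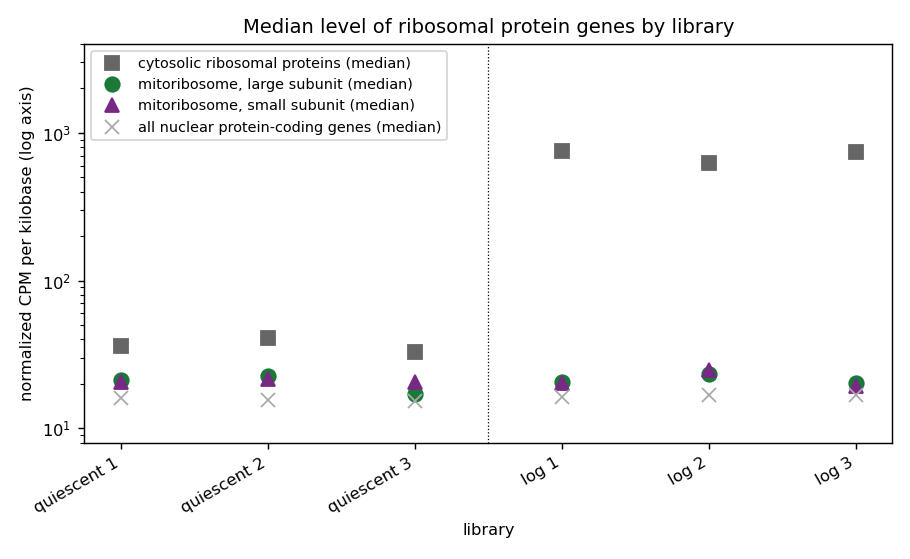
Median level (CPM per kb, log axis) of cytosolic, mitochondrial large-subunit and mitochondrial small-subunit ribosomal protein genes and of all nuclear genes in each library, with quiescent libraries left of log libraries. The mitochondrial medians lie between 17.2 and 24.9 in every library, while the cytosolic median is 33.04 to 41.1 in quiescent and 627 to 755 in log libraries.

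Other parts of mitochondrial translation moved in both directions too. Of 12 translation factor genes 5 rose and 1 fell. The greatest rises were those of GTF1, a subunit of the amidotransferase that makes Gln-tRNA, at 2.68 ± 0.24 and MEF2 at 1.84 ± 0.20. The faller was TUF1, the elongation factor Tu of mitochondria, at -0.89 ± 0.26. Of 17 genes listed as activators of mitochondrial mRNAs 6 rose and 4 fell, led by CBP6 at 1.64 ± 0.34 and AEP3 at 1.499 ± 0.27. Of 11 genes for ribosome assembly, rRNA modification and membrane docking 5 rose, among them PUS5, the pseudouridine synthase of 21S rRNA, at 2.07 ± 0.24 and the rRNA methyltransferase gene MRM2 at 1.54 ± 0.25. The 1 that fell was OXA1, the insertase at which these ribosomes dock, at -0.65 ± 0.22. On leaving out single libraries TUF1 was lost without quiescent replicate 1 or 3 (adjusted p 0.053 and 0.0623), and OXA1 without quiescent replicate 3 or log replicate 2 or 3 (adjusted p 0.0615, 0.051 and 0.0831). On the log2(TPM + 1) scale CBP6, AEP3 and MRM2 did not pass, at 0.50, 0.35 and 0.39.

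Of 13 mitochondrial aminoacyl-tRNA synthetase genes 4 rose and 3 fell, with a median of 0.05. MSF1, for phenylalanine, was at 1.65 ± 0.44 with overlapping groups, and SLM5, for asparagine, was at 0.79 ± 0.25 but -0.15 on the log2(TPM + 1) scale. Of 8 genes for mitochondrial transcription and RNA decay 2 rose and 3 fell, the fallers including SLS1 at -1.11 ± 0.32 and SUV3 at -0.62 ± 0.21. The 6 ribosomal proteins outside the naming rule had 1 rise, RTC6 at 0.70 ± 0.26, which was -0.32 on the TPM scale, and 1 fall, EHD3 at -0.61 ± 0.20. Each of the smaller of these calls could be lost with a single library: SLM5 without log replicate 1 or 2 (adjusted p 0.0565 and 0.0596), SUV3 without quiescent replicate 3 or log replicate 2 or 3 (0.0574 to 0.118), RTC6 without quiescent replicate 1 or 2 or log replicate 1 or 2 (0.0501 to 0.124) and EHD3 without quiescent replicate 3 or log replicate 1 or 3 (0.056 to 0.101). The list of 34 genes for respiratory chain enzymes and the ATP synthase had 16 risers and 8 fallers, with a median of 0.14. This ribosome makes core subunits of some of these enzymes, but not of all. The greatest rises in that list were those of SDH2 at 3.15 ± 0.23 and COX7 at 2.505 ± 0.22. Beside these counts, 31.7% of all nuclear genes rose and 41.1% fell.

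Of 5 regulator genes, PUF3 and the HAP subunits, 4 rose and none fell in the edgeR test. Among all nuclear genes tested 31.7% rose and 41.1% fell. PUF3 had 81.6, 109 and 69.9 CPM per kb in quiescent libraries, against 26.7, 24.2 and 22.4 CPM per kb in log libraries. Its means were 86.8 ± 20.1 in quiescent cells and 24.5 ± 2.17 in log cells (SD, n = 3 each), a log2 fold change of 1.83 ± 0.22 (edgeR adjusted p 3.31e-05). HAP4, the activating subunit of the CCAAT-binding complex that drives respiratory genes, had 64.2, 64.8 and 61.6 CPM per kb in quiescent libraries and 29.3, 22.7 and 20.5 in log libraries. It rose by 1.39 ± 0.19, HAP2 by 2.25 ± 0.22 and HAP5 by 1.30, while HAP3 did not pass, at -0.59 (edgeR adjusted p 0.202). On the log2(TPM + 1) scale HAP4 and HAP5 did not pass, at 0.37 and 0.18, and HAP3 fell at -1.18. These RNA levels say nothing of the amount or activity of the proteins.

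Other genes with the Puf3 motif moved in both directions. Outside the 72 members, 838 of 5914 nuclear genes (14.2%) had TGTANATA after the stop codon, and of the 809 tested 237 rose and 316 fell, which is 68.4% called, against 74.1% of other genes without the motif. For the longer form with the added C the shares were 60.5% called with it and 73.7% without it. The motif was in all 13 aminoacyl-tRNA synthetase genes and in all 6 further mitochondrial ribosomal proteins. It was also in 13 of 17 activators of mitochondrial mRNAs and in 9 of 12 translation factors. It was in 8 of 137 cytosolic ribosomal protein genes (5.84%) and in 6 of 34 respiratory chain and ATP synthase genes (17.6%), beside 15.2% of all genes.

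Upstream of the genes none of 3 motifs searched was as widely shared. From 250 bases before to 50 after the start codon, on either strand, CCAAT, the core of the site of the Hap complex, was in 31 of 72 members (43.1%), as in 43.3% of all nuclear genes. In the respiratory chain and ATP synthase list it was in 30 of 34 (88.2%). AATTTT was in 31 of 72 members (43.1%) against 51.7% of all genes, and the stress element core AGGGG was in 12 of 72 (16.7%) against 21.7%. Members with CCAAT held 7 risers and 6 fallers among 31, and members without it 6 and 6 among 41. Over all nuclear genes 73.4% were called with CCAAT and 72.2% without it. Of the 12 members with AGGGG 4 rose and 1 fell, and of the 60 without it 9 rose and 11 fell. Over all nuclear genes with AGGGG, 557 of the 1229 tested rose and 359 fell. Of the 31 members with AATTTT 9 rose and 5 fell, and of the 41 without it 4 rose and 7 fell. Over all nuclear genes with AATTTT, 793 of the 2919 tested rose and 1376 fell. These matches are letters in a window and carry no test.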

How the data were processed

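RNA of 6 yeast samples, 3 quiescent and 3 log, was sequenced on an Ion Proton after Ribo-Zero depletion of rRNA from 250 ng of RNA, per the labels' protocols. The deposited table holds raw counts of reads per feature, per the file headers and whole-number values. The submitters' processing notes name R64 as the genome. No source used here gives the aligner, counter or use of strand, so reads of overlapping genes (MRPL19 with YNL184C, MRPL51 with YPR099C, MRP4 with YHL005C) cannot be assigned. ERCC spike-ins, added per the labels, were not analysed here, so every level is relative to the library. 6 columns of per-sample TPM values in the table were not used. No other gene had a stretch of 50 bases or more at 90% identity with a member (blastn 2.17.0), beyond the overlapping genes.

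Rows with a mean of 1 TPM or more, computed from the counts and the deposited gene lengths, were kept (7305), scaled by TMM and tested with edgeR 4.0.16's quasi-likelihood test in R 4.3.3, with Benjamini-Hochberg adjustment over all of them. Beyond the word biological, nothing says that replicates came from separate cultures, and p-values measure the spread between these libraries. Alternatives were other size factors, other filters, DESeq2 1.42.0, limma 3.58.1 on log2(TPM + 1) and log2(TPM + 0.1), a replicate block and each library left out. The members, lists and motifs were chosen with earlier results of these data known, and the longer Puf3 motif after it was seen in the sites. Named members are, in each subunit, the 5 called genes of greatest rise and fall, the 3 of highest and 2 of lowest level, the 2 nearest to no change, those opposite and called on the TPM scale, and the 6 genes the membership rule adds by name. Each other list gives its 2 called genes of greatest change in its main direction; further genes were named after their values were seen. RPP1, an RNase P subunit that the name rule for cytosolic ribosomal proteins also takes, was left out of that list. MRP35 was placed in the large subunit from its annotated family name. Motif windows were read from the R64 genome. Protein sequences were not used here.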

Additional observations from a re-analysis of the deposited data

How the results depend on the processing

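With median-of-ratios size factors and with DESeq2, all 25 called members kept their call and direction. With TMM factors from nuclear protein-coding genes 24 did, MRPL13 being lost, and 8 small-subunit genes rose, with a small-subunit median of 0.19. With total-count scaling 18 did, with 6 members risen, 3 in each subunit, and a small-subunit median of -0.26. A filter of 10 TPM left 17 members, of which 6 rose (3 large, 3 small) and 1 fell (1 large, 0 small), with medians of 0.52 and 0.60. With limma on log2(TPM + 1) 2 rose (2 large, 0 small) and 47 fell (28 large, 19 small), with medians of -0.998 and -0.85. With log2(TPM + 0.1) the counts were the same and the medians -1.17 and -1.01.

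Values that changed sign on those TPM scales, the smaller pseudocount second, were MRP49 at -0.0904 and -0.12, MRPL40 at -0.20 and -0.23, MRPL16 at -0.24 and -0.28, MRP7 at -0.25 and -0.28, YML6 at -0.37 and -0.43, MRPL39 at -0.94 and -1.003, MRPL33 at -0.85 and -0.92, MRPL35 at -0.76 and -0.94, RSM7 at -0.0744 and -0.0831, RSM10 at -0.17 and -0.18, RSM19 at -0.91 and -0.98, RSM24 at -0.81 and -0.94, MRP21 at -0.80 and -0.97, MRPS18 at -0.83 and -0.90, RTC6 at -0.32 and -0.34, and SLM5 at -0.15 and -0.21. The all-gene median was -0.98 with the larger pseudocount, so these scales sit lower for every group. The cause was not tested.

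Leaving out 1 library at a time gave 11 to 19 fallen members, 5 to 12 fallen large-subunit genes and a small-subunit median of -0.0412 to 0.14, and 22 to 25 calls kept. Of all nuclear genes tested, 37.6% to 41.6% fell in the same fits. The difference of subunit medians, large minus small, was -0.29 to -0.09 over all settings. Samples of the same replicate number did not deviate together (correlations of 0.0446, -0.0808 and -0.0386). With a replicate block 12 members rose and 13 fell, and 24 of 25 calls were kept, YML6 being lost. Counts of 20 to 705 per member and 3 libraries a group limit what small changes could be called.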
